A study of Mus musculus with 2 samples.

Results

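The genes described here encode the antioxidant enzymes of the cell: glutathione peroxidases, peroxiredoxins, superoxide dismutases, catalase, the thioredoxin system, glutathione synthesis and reduction, and the soluble glutathione S-transferases. Members were chosen by name alone, as protein-coding genes whose symbol starts with Gpx, Prdx, Gst or Txn, together with Sod1, Sod2, Sod3, Cat, Gclc, Gclm, Gss, Gsr, Nqo1, Srxn1 and Keap1. The rule found 67 of the 55536 genes with a row, which include 22015 nuclear protein-coding genes. Total RNA was measured in the adrenal gland of female mice from a cross of 5xFAD with CAST, aged 8 to 10 months, with 300 ng of RNA per library. 5xFAD is a transgenic model of Alzheimer's disease whose transgenes are driven by the neuronal Thy1 promoter, and CAST is a wild-derived strain. The labels gave 1 group of 2 biological replicates, and mouse 1 and mouse 2 below are replicates 1 and 2. Both replicates carried the same donor identifier, so their separation as animals rests on the replicate numbers, and the spread between them may be technical. No second group was analysed here, so no condition was compared.

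Superoxide, released by respiration and by the mitochondrial cytochromes P450 of the steroid-producing cortex, is converted to hydrogen peroxide by superoxide dismutases. Catalase, glutathione peroxidases and peroxiredoxins then remove the peroxide, and the last of these are recharged by thioredoxin, thioredoxin reductase and NADPH. Glutathione serves the peroxidases as electron donor and the S-transferases as the group they attach to reactive compounds. KEAP1 holds the transcription factor NRF2 low, and NRF2 acts on many of these genes through the antioxidant response element.

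Depth over genes was 36558609 expected counts in mouse 1 and 32192201 in mouse 2. Levels between genes are compared in TPM, which is scaled to transcript length. TPM was not rescaled between the libraries, so differences between the mice are read from the log2 ratios of scaled counts below. Prdx2, Prdx6, Gstp1 and Gsr, for example, had higher TPM in mouse 2 but lower scaled counts there. A count of 0 allowed a level of up to 0.0821 CPM (counts scaled to the library's total) in mouse 1 and 0.0932 in mouse 2, by the limit of 3 counts, which covers counting error only. The cortex was represented by all 6 of its fixed markers, with Star at 5127 and 5742 TPM, and the medulla by all 4 of its markers, with Th at 240.1 and 252 TPM.

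Most of the members were expressed, and as a set they were abundant. In both mice 57 of the 67 reached 1 TPM, 42 reached 10 TPM and 12 reached 100 TPM. Their summed TPM was 3749 (mouse 1) and 4047 (mouse 2), or 1.27% and 1.25% of the TPM of all nuclear protein-coding genes. Peroxiredoxins with sulfiredoxin held 28.0% and 27.0% of the members' TPM, superoxide dismutases with catalase 21.2% and 19.96%, and the thioredoxin system 18.7% and 19.4%. The remainder lay with the glutathione peroxidases at 15.3% and 14.8%, the S-transferases at 14.1% and 16.2%, glutathione synthesis and reduction at 2.22% and 2.15%, and Nqo1 with Keap1 at 0.475% and 0.471%.

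**Figure D1:**
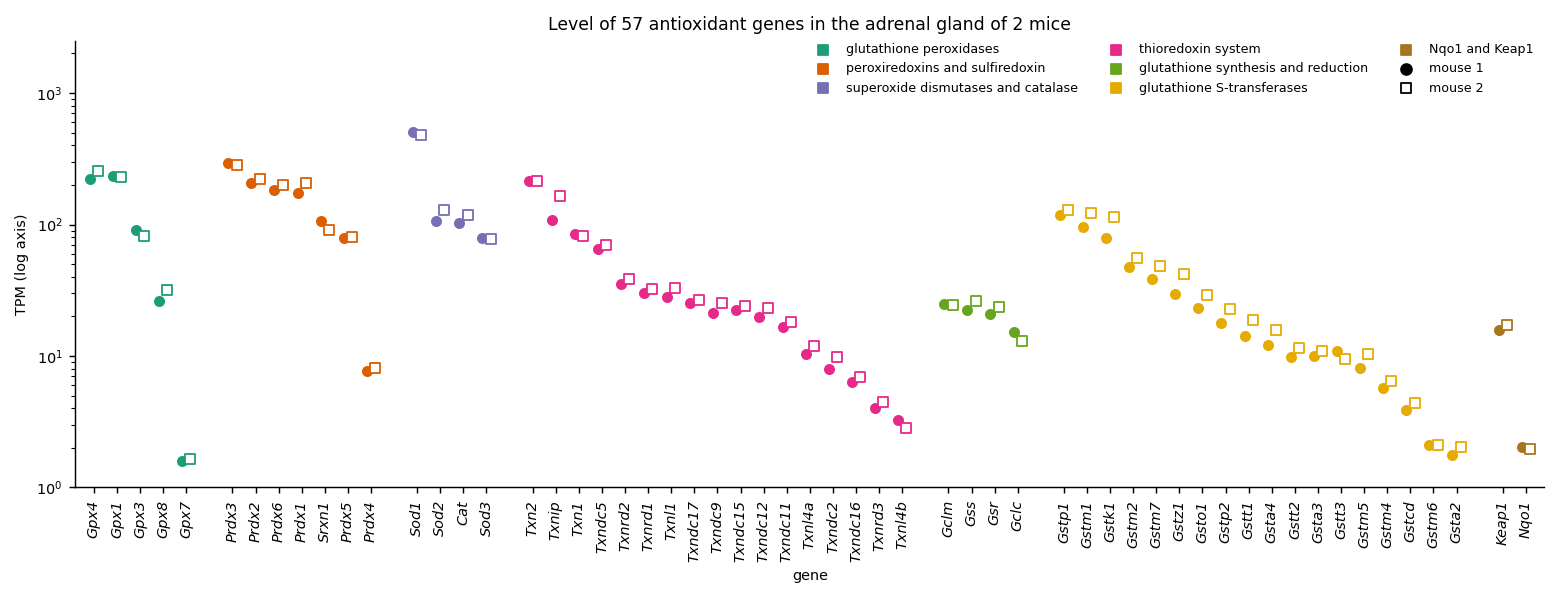
Level of each of the 57 members that reached 1 TPM in both mice, in TPM on a log axis, grouped by role and ordered by mean within a group; filled circles are mouse 1 and open squares mouse 2. Sod1 is at the top with 503 and 483 TPM, and Gpx7, Gsta2 and Nqo1 lie near the lower edge.

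The levels between the mice were close. The log2 ratio of mouse 2 to mouse 1, from expected counts scaled by TMM, could be computed for the 58 members that averaged 10 counts or more. None of these 58 was 2-fold apart, where 2.96% of the 17666 genes with that many counts were. Their ratios ran from -0.37 for Srxn1 to 0.42 for Txnip, with 26 above 0, 32 below and a median of -0.03, against a median of 0.00 over all genes. With total count scaling these medians were 0.02 and 0.05, and in the second quantification 0.01 and 0.00. The median size of the log2 ratio was 0.12 for the members and 0.13 for all genes. Among genes that averaged 1000 counts or more it was 0.11 for 34 members and 0.08 for all 5540 genes.

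A difference beyond counting noise, by an exact two-sided binomial test with Benjamini-Hochberg adjustment over all 17666 genes at 0.05, was called for 22 members. Over all genes, 21.3% were called. Of the members, 8 were higher in mouse 2 (10.4% of all genes were) and 14 were lower (11.0% of all genes were). With library sizes scaled to total counts instead, 24 members were called, 13 higher and 11 lower. That scaling also moved the median log2 ratio of all genes to 0.05. The shares of all genes given here are for TMM scaling and are no background for these counts. Deeply counted genes pass this test more often: at a mean of at least 1000 counts it called 20 of 34 members and 37.1% of all genes, a threshold added after seeing the data. The test compares these 2 libraries and not conditions.

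Markers of other cells also differed between the libraries. The 6 adipocyte markers were all called higher in mouse 2, with summed levels of 1398 and 2337 TPM. The 5 red blood cell markers were all called lower, with a summed 747 and 409 TPM, and the 4 chromaffin markers were all called lower, with a median log2 ratio of -0.23. The 6 cortex markers had a median of -0.05, with 2 called higher in mouse 2 and 3 called lower. Of all genes 10.4% were called higher and 11.0% lower. Most of these markers were deeply counted, and 37.1% of all genes that averaged 1000 counts or more were called. All 5 macrophage markers lay above 0 and none was called, with a summed 53.1 and 61.7 TPM. Of the 4 kidney markers Umod, Slc12a1 and Slc34a1 were listed at 0, and Aqp2 had 16 and 6 counts, or 0.3 and 0.14 TPM. The 4 liver markers summed to 1.28 and 2.76 TPM. Among them Alb had 36 and 113 counts and was called higher in mouse 2, with a log2 ratio of 1.73 (exact binomial adjusted p = 8.77e-11), and Apoa1 had 15 and 7 counts and was not called. The 3 muscle markers summed to 0.07 and 0.16 TPM. The part of these cells in the differences of the members was not tested, and in bulk tissue fewer cells of a type cannot be told apart from less RNA per cell.

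**Figure D2:**
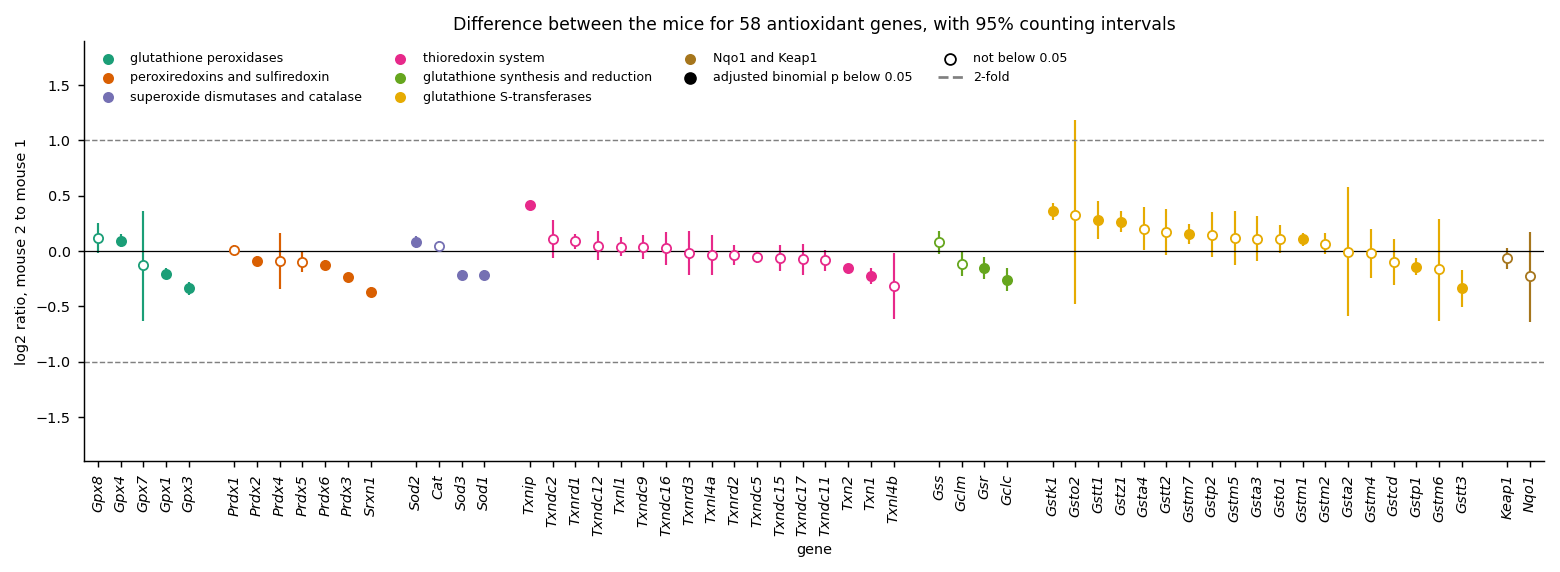
The log2 ratio of mouse 2 to mouse 1 for the 58 members that averaged 10 counts or more, grouped by role; bars are 95% counting intervals, filled points have an adjusted binomial p below 0.05 and dashed lines mark 2-fold. Every point lies between the dashed lines, from -0.37 for Srxn1 to 0.42 for Txnip.

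The glutathione peroxidases were led by the selenium-containing Gpx4 and Gpx1. A selenoprotein reads a TGA codon as selenocysteine, the residue that reacts with the peroxide. In the GENCODE M21 transcripts, 7 of the 67 members carried an in-frame TGA, namely 4 peroxidases and the 3 thioredoxin reductases. The codon aligned with the TGA of Gpx1 is shown in capitals for all 8 peroxidases, since it divides them. It is TGA in Gpx1, Gpx2, Gpx3 and Gpx4, and a cysteine codon (TGC or TGT) in Gpx5, Gpx6, Gpx7 and Gpx8. Each window is 51 bases of the coding strand.
Gpx1: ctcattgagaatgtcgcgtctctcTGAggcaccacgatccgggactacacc
Gpx2: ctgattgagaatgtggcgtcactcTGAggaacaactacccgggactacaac
Gpx3: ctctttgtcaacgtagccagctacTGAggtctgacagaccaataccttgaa
Gpx4: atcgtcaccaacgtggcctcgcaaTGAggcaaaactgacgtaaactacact
Gpx5: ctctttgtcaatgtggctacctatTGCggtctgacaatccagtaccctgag
Gpx6: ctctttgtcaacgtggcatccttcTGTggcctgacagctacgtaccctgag
Gpx7: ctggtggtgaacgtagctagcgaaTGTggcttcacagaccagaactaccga
Gpx8: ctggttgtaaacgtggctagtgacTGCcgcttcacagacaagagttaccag

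The TGA of Gpx1 is codon 47 of 201, in exon 1 (chr9:108339451-108339453, mm10, plus strand). In Gpx3 it is codon 73 of 226, in exon 2 (chr11:54907256-54907258), and in Gpx4 codon 73 of 197, in exon 3 (chr10:80054737-80054739). Identity between pairs of the 8 coding sequences ranged from 67.4% to 76.97%.

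The 3 abundant peroxidases all carry the TGA. Gpx4, which reduces lipid peroxides in membranes (chromosome 10, 80047166 to 80056439), stood at 222 TPM in mouse 1 and 257 in mouse 2 (239 ± 24.5, SD, n = 2). Gpx1, the peroxidase of cytosol and mitochondria (chromosome 9, 108338903 to 108340343), stood at 233 and 229.5 TPM (231 ± 2.62). Gpx3, which is secreted (chromosome 11, 54902453 to 54910377), stood at 90.4 and 81.1 TPM. Gpx8, an endoplasmic reticulum enzyme with a cysteine codon, was lower at 26.3 and 31.97 TPM, and its relative Gpx7 stood at 1.59 and 1.64 TPM. Gpx2, the gastrointestinal enzyme, and Gpx5, known from the epididymis, had no count in either mouse, and Gpx6, known from olfactory tissue, had 2 counts in mouse 1 and none in mouse 2.

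Of 5 tested peroxidases, 1 was called higher in mouse 2 and 2 lower, with a median log2 ratio of -0.13. Of all genes 10.4% were called higher and 11.0% lower, and 37.1% of those that averaged 1000 counts or more were called. Gpx3 had 5497 and 3970 counts, a log2 ratio of -0.33 (95% counting interval -0.39 to -0.28, exact binomial adjusted p = 3.29e-27). Gpx1 had 7325 and 5792 counts, a log2 ratio of -0.20 (adjusted p = 3.09e-14), while its TPM differed little, since TPM was not rescaled between the libraries. Gpx4 was higher by 0.09 (0.04 to 0.15, adjusted p = 0.00636). Gpx4 and Gpx1 changed places between the mice, so their order is not set by these data.

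Peroxiredoxins gave the largest share of the members' RNA, and 4 of them stood within the 211 most abundant nuclear protein-coding genes. Prdx3, the peroxiredoxin of the mitochondrial matrix (chromosome 19, 60864051 to 60874556), stood at 295 and 284 TPM (289.5 ± 8.03, SD, n = 2), rank 103. The cytosolic Prdx2 stood at 206 and 221 TPM, Prdx6, which takes glutathione as its donor, at 184.4 and 199 TPM, and the cytosolic Prdx1 at 174 and 208 TPM. Prdx2 lay above Prdx6 in each mouse, and the range of Prdx1 overlapped both. Transcripts of Prdx6 annotated as protein-coding held only 27.2 and 29.25 TPM. Prdx5 stood at 78.3 and 80.5 TPM and Prdx4, of the endoplasmic reticulum, at 7.67 and 8.14 TPM. Prdx6b had no count in either mouse.

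Srxn1 encodes sulfiredoxin, which restores peroxiredoxins whose cysteine has been overoxidised (chromosome 2, 152105516 to 152111376). It stood at 105.5 and 90.9 TPM (98.2 ± 10.3, SD, n = 2), on 11356 and 8028 counts. This was the lowest log2 ratio of all tested members, -0.37 (-0.41 to -0.32, exact binomial adjusted p = 2.60e-66). In the group of 7 tested genes 6 lay below 0, with a median of -0.10. The 4 called were all lower in mouse 2, where 11.0% of all genes were called lower. Beside Srxn1 these were Prdx3 at -0.23 (adjusted p = 1.69e-40), Prdx6 at -0.13 (adjusted p = 3.88e-07) and Prdx2 at -0.09 (adjusted p = 0.00229). All 4 averaged 1000 counts or more, a depth at which 37.1% of all genes were called. The call of Prdx2 was lost with total count scaling (adjusted p = 0.259). Prdx1 lay at 0.01 and was not called. With total count scaling it was called higher, at 0.06 (adjusted p = 0.0379), and with ERCC scaling it lay at -0.0076, on the other side of 0. The red blood cell markers, also lower in mouse 2, had a median log2 ratio of -0.99, and their part was not tested.

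Sod1 was the most abundant of all members. It encodes the copper and zinc superoxide dismutase of the cytosol (chromosome 16, 90220754 to 90226329) and stood at 503 and 483 TPM (493 ± 14.1, SD, n = 2), rank 37 of the nuclear protein-coding genes. Sod2, the manganese enzyme of mitochondria (chromosome 17, 13006846 to 13040063), stood at 107 and 128 TPM. Cat, the catalase of peroxisomes, stood at 103.5 and 119 TPM and Sod3, the secreted dismutase, at 79.4 and 77.4 TPM. The ranges of Sod2 and Cat overlapped, and both lay above Sod3 in each mouse. Transcripts of Sod2 annotated as protein-coding held only 13.2 and 16.3 TPM, below Sod3.

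Sod1 was lower in mouse 2, on 11497 and 9040 counts, with a log2 ratio of -0.21 (-0.25 to -0.17, exact binomial adjusted p = 6.61e-24). Sod3 had the same ratio of -0.21 (adjusted p = 2.52e-24). Sod2 was higher at 0.08 (adjusted p = 0.00888), a call lost with spike-in scaling, and Cat lay at 0.05 (adjusted p = 0.0989). Cat was called higher with total count scaling (adjusted p = 0.000129) and in the second quantification (adjusted p = 0.0104). Ccs, the chaperone that delivers copper to SOD1 and a gene outside the rule, stood at 56.8 and 47.1 TPM with a log2 ratio of -0.42 (adjusted p = 4.47e-16).

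The thioredoxin system held 18 members, of which 17 were expressed. Thioredoxins reduce disulfides with a pair of cysteines, and thioredoxin reductases recharge them with a selenocysteine near the end of the protein. In each reductase the TGA is the second-last codon: codon 498 of 499 in Txnrd1, 526 of 527 in Txnrd2 and 614 of 615 in Txnrd3. The windows below end 3 bases after the TGA, given in capitals.
Txnrd1: ggagacatcctccagtctggctgcTGAggt
Txnrd2: ctggagcctactgtgactggttgcTGAggc
Txnrd3: ctggacattactcagaaaggctgcTGAggc

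The cysteine pair lies in Cys-Gly-Pro-Cys codons in 5 members (Txn1, Txn2, Txndc2, Txndc8 and Txnl1). In Txndc5, a protein disulfide isomerase of the endoplasmic reticulum, it is Cys-Gly-His-Cys, which occurs 3 times and in no other member. The 4 codons are in capitals, for Txn1 from codon 32, for Txn2 from codon 90 and for Txndc5 from codons 75, 203 and 335.
Txn1: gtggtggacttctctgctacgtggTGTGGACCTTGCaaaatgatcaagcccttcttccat
Txn2: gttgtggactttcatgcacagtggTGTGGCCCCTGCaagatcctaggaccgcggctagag
Txndc5, codon 75: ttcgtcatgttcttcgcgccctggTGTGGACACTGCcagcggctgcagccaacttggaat
Txndc5, codon 203: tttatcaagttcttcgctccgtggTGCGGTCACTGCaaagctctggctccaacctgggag
Txndc5, codon 335: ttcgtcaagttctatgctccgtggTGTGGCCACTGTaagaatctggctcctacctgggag

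The mitochondrial thioredoxin was more abundant than the cytosolic one. Txn2 (chromosome 15, 77915047 to 77929006) stood at 214 and 213 TPM (213.6 ± 0.566, SD, n = 2), and Txn1 (chromosome 4, 57943373 to 57956411) at 84.6 and 81.8 TPM (83.2 ± 1.99). The reductases followed, with the mitochondrial Txnrd2 at 35.2 and 38.2 TPM, the cytosolic Txnrd1 at 30.2 and 32.4 TPM and Txnrd3 at 3.99 and 4.46 TPM. Txnrd2 lay above Txnrd1 in both mice. Txndc5 stood at 64.8 and 70.4 TPM, and the other expressed Txndc and Txnl members, which hold thioredoxin-like domains, ranged in mean from 3.04 TPM for Txnl4b to 30.5 TPM for Txnl1. Txndc8, known from the testis, had no count in either mouse.

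Txnip encodes the protein that binds and inhibits thioredoxin (chromosome 3, 96557957 to 96561883). It stood at 107 TPM in mouse 1 and 164 in mouse 2 (136 ± 40.2, SD, n = 2), on 10500 and 12759 counts. Its log2 ratio of 0.42 (0.38 to 0.45, exact binomial adjusted p = 2.81e-104) was the largest of all tested members in either direction. The thioredoxins lay on the other side: Txn1 at -0.22 (-0.30 to -0.15, adjusted p = 9.43e-08) and Txn2 at -0.16 (-0.20 to -0.11, adjusted p = 8.41e-12). No reductase was called, with log2 ratios of 0.09 for Txnrd1, -0.04 for Txnrd2 and -0.02 for Txnrd3. None of the 8 tested Txndc and none of the 3 Txnl genes was called, with Txnl4b lowest at -0.31 (adjusted p = 0.12). Of all genes, 21.3% were called. Txnrd1 was called higher with total count scaling (adjusted p = 0.000953) and in the second quantification (adjusted p = 0.0123). Txndc5, at -0.06 (adjusted p = 0.083), was called lower with ERCC scaling and with a filter at a mean of 100 counts.

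The genes of glutathione synthesis and reduction were expressed at similar levels in the gene table, less so in the second quantification. Gclc and Gclm encode the catalytic and modifier subunits of the rate-limiting ligase, Gss the synthetase and Gsr the reductase. Gclm stood at 24.7 and 24.3 TPM, Gss at 22.3 and 26.3 TPM, Gsr at 20.8 and 23.4 TPM and Gclc at 15.3 and 13.0 TPM. Gclc was below the other 3 in both mice, Gclm lay above Gsr in both, and the range of Gss overlapped those of Gclm and Gsr. In the second quantification Gclm stood at 43.7 and 43.2 TPM and Gclc at 18.9 and 12.5 TPM. Transcripts annotated as protein-coding held 17.2 and 15.5 TPM for Gclm and 16.0 and 15.6 TPM for Gsr, so their order differed between the mice. Gclc (chromosome 9, 77754535 to 77794485) had a log2 ratio of -0.26 (-0.36 to -0.16, exact binomial adjusted p = 7.34e-06) and Gsr one of -0.15 (adjusted p = 0.0196). Gclm at -0.12 (adjusted p = 0.109) and Gss at 0.08 (adjusted p = 0.298) were not called. In the second quantification Gclm was called lower as well (adjusted p = 0.0271). The call of Gsr was lost with total count scaling (adjusted p = 0.141).

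The glutathione S-transferases were the largest family by number, with 23 members, and 18 reached 1 TPM in both mice. Several classes lie in gene clusters, the mu class with 7 genes on chromosome 3 (107895821 to 108044894, 149.1 kb), the theta class with 4 on chromosome 10 (75774115 to 75837424, 63.3 kb) and the pi class with 3 on chromosome 19 (4035407 to 4059569, 24.2 kb). By gene TPM the leading member was Gstp1 of the pi class at 117 and 128 TPM (123 ± 7.67, SD, n = 2). Gstm1 of the mu class stood at 96.3 and 121 TPM (109 ± 17.7). Gstk1, the kappa enzyme of mitochondria and peroxisomes (chromosome 6, 42245935 to 42250447), stood at 78.9 and 114 TPM (96.7 ± 25.1), and Gstm2 at 47.1 and 55.7 TPM. In each mouse these 4 kept this order by gene TPM, although the range of Gstm1 overlapped those of Gstp1 and Gstk1. Transcripts annotated as protein-coding held 96.3 and 92.1 TPM for Gstp1, 83.3 and 98.5 for Gstm1 and 77.8 and 113 for Gstk1. By those transcripts Gstp1, Gstm1 and Gstk1 stood in the reverse order in mouse 2.

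Within a cluster the levels were unequal. In the mu cluster they ran from 0.01 TPM for Gstm3 to 109 TPM for Gstm1, although the coding sequences of the 7 share 73.6% to 89.5% of their bases. In the pi cluster they ran from 0.285 TPM for Gstp3 to 123 TPM for Gstp1. Among the alpha genes Gsta4 stood at 12.2 and 15.9 TPM and Gsta3 at 9.97 and 10.8 TPM, while Gsta2 stood at 1.76 and 2.03 TPM and Gsta1 at 0.42 and 0.21 TPM.

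This family was the role group whose median log2 ratio lay above 0, at 0.11, with 13 of 19 tested members above 0. With total count scaling the median of the thioredoxin system also lay above 0, at 0.02, as it did in the second quantification, at 0.03. The difference between role groups was not tested. The adipocyte markers, also higher in mouse 2, had a median log2 ratio of 0.70, and their part was not tested. Of the 19, 5 were called higher in mouse 2 and 2 lower, where 10.4% and 11.0% of all genes were. Among all genes that averaged 1000 counts or more, 37.1% were called. Gstk1 had 2686 and 3136 counts, a log2 ratio of 0.36 (0.28 to 0.43, exact binomial adjusted p = 1.77e-19). Gstt1 of the theta class lay at 0.28 (adjusted p = 0.01) and Gstz1, the zeta enzyme of tyrosine breakdown, at 0.27 (0.18 to 0.36, adjusted p = 1.39e-07). Gstm7 lay at 0.15 and Gstm1 at 0.11. The call of Gstt1 was lost in the second quantification (adjusted p = 0.0547).

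The theta neighbours Gstt1 and Gstt3 went opposite ways. Gstt3 had 735 and 530 counts, a log2 ratio of -0.34 (-0.50 to -0.17, exact binomial adjusted p = 0.000439), and Gstp1 lay at -0.14 (adjusted p = 0.00248), a call lost with total count scaling (adjusted p = 0.0672). Among the 9 members too low to test were Gsta1, Gstp3, Gstt4 and Gstm3, with at most 13.2 counts in a mouse. The members just above 1 TPM in mean were Gpx7, Gsta2, Nqo1, Gstm6, Txnl4b and Gstcd, at 1.61 to 4.14 TPM. Those just below were Gsto2, Gsta1, Gstp3, Gstt4, Gpx6 and Gstm3, at 0.71 down to 0.01 TPM.

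Keap1, the sensor that holds NRF2 low, stood at 15.8 and 17.1 TPM, and Nqo1, a quinone reductase and a classical NRF2 target, at 2.03 and 1.95 TPM. Neither was called, with log2 ratios of -0.06 and -0.23. The core of the antioxidant response element, TGACNNNGC, was searched on both strands of the RefSeq promoter windows of the GRCm38.p6 build, from 250 bases before to 50 after a start. Of the 67 members 58 had an entry, with 76 windows. The core was present in 11 of these 76 windows (14.5%) and in 12.4% of all 32851 windows. Of the 11 matches 6 read TGACNNNGC on the gene's strand and 5 read GCNNNGTCA there, with the core on the opposite strand. Shown, with the core in capitals on the gene's strand, are the 4 matched genes of highest mean TPM whose match lies before the RefSeq start. The windows of Txndc5 and Gstm7 lie inside the gene as GENCODE places it, with first bases at 38528824 and 107931817. Srxn1, with a higher mean TPM than Txndc5 and Gstm7, has its match after the start.
Sod1, chr16:90220696-90220724, plus strand: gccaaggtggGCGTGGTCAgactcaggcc
Prdx1, chr4:116685456-116685484, plus strand: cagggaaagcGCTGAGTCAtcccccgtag
Txndc5, chr13:38528034-38528062, minus strand: gcctcgccgcTGACGTGGCgctagccgcc
Gstm7, chr3:107931725-107931753, minus strand: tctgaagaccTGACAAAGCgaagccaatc

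The other matches lay in Gclm, Gsta3, Gstm5, Srxn1, Txndc2, Txndc11 and Txnrd1. Among the 11 genes with a match, Srxn1 was called lower between the mice (-0.37), as was Sod1 (-0.21), Gstm7 was called higher (0.15), and the other 8 were not called. Over all genes 21.3% were called. A match is a description of these letters and was not tested as a binding site.

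Genes of the same pathways outside the rule were taken from a list of 62, of which 61 could be tested. None was 2-fold apart between the mice, 25 lay above 0 and 36 below, with a median log2 ratio of -0.02. By the exact binomial test 10 were called higher and 11 lower, where 10.4% and 11.0% of all genes were. Many of these genes were deeply counted, and 37.1% of all genes that averaged 1000 counts or more were called. Mgst1, the membrane-bound glutathione transferase, stood at 575 and 637 TPM, above all members, and did not differ beyond counting noise (-0.01). In the NRF2 group Sqstm1, an adaptor that binds KEAP1, stood at 315 and 312 TPM and Nfe2l1, a relative of NRF2, at 213 and 206 TPM, both called lower (-0.20 and -0.08). Nfe2l2, which encodes NRF2, stood at 32.97 and 39.9 TPM and was called higher at 0.12. Hmox1, the inducible heme oxygenase and an NRF2 target, stood at 10.8 and 10.2 TPM and was called lower at -0.27.

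The 8 genes listed under NADPH supply, not all of which make NADPH themselves, spanned a wide range of levels. Me1, the malic enzyme, stood at 331 and 401 TPM, Tkt, the transketolase, at 176 and 249 TPM, Idh1 at 182 and 214 TPM and Taldo1 at 187 and 208 TPM. Pgd was lower at 78.2 and 80.3 TPM, as were G6pdx, the first enzyme of the pentose phosphate pathway, at 58.5 and 59.7 TPM and Idh2 at 35.5 and 43.3 TPM. Of the 8 genes, which all averaged 1000 counts or more, 3 were called higher and 2 lower, where 37.1% of all genes of that depth were called. Tkt had the largest ratio, 0.35 (exact binomial adjusted p = 2.51e-83). Nnt, the mitochondrial transhydrogenase, stood at 52.2 and 58.3 TPM and was not called. Slc7a11, the cystine carrier that feeds glutathione synthesis, was low at 0.17 and 0.08 TPM, on 27 and 23 counts, while its partner Slc3a2 stood at 76.0 and 78.9 TPM. Glrx5, the mitochondrial glutaredoxin, stood at 79.98 and 79.5 TPM and Selenop, the secreted selenium carrier, at 76.1 and 86.2 TPM.

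Among other abundant genes of these groups Mgst2, a membrane transferase, stood at 60.1 and 61.9 TPM. Glrx3, a cytosolic glutaredoxin, stood at 25.9 and 31.5 TPM and Sephs2, which makes the selenium donor of selenoproteins, at 27.1 and 33.99 TPM. Msrb1, a methionine sulfoxide reductase, stood at 26.2 and 31.7 TPM, and the sestrin Sesn3 at 26.3 and 26.9 TPM. Of these 5 genes Sephs2 alone was called between the mice, higher at 0.15 (exact binomial adjusted p = 0.00253), where 21.3% of all genes were called.

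Each library had been quantified in 2 ways, from transcriptome alignments in the gene table and from the reads with a transcript index. None of the 57 members with a mean of 1 TPM was 2-fold apart between them, where 0.875% of 12121 nuclear protein-coding genes were. The second quantification was higher for Gclm by 0.82 on the log2 scale of TPM plus 0.1, for Prdx2 by 0.52, for Txnl4a by 0.48 and for Txndc16 by 0.24. It was lower for Gstp2 by a log2 difference of -0.71, for Prdx5 by -0.42, for Gpx4 by -0.29 and for Txndc2 by -0.25. Gclm thus stood at 24.5 TPM in the mean of the gene table and at 43.7 and 43.2 TPM in the second quantification.

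**Figure D3:**
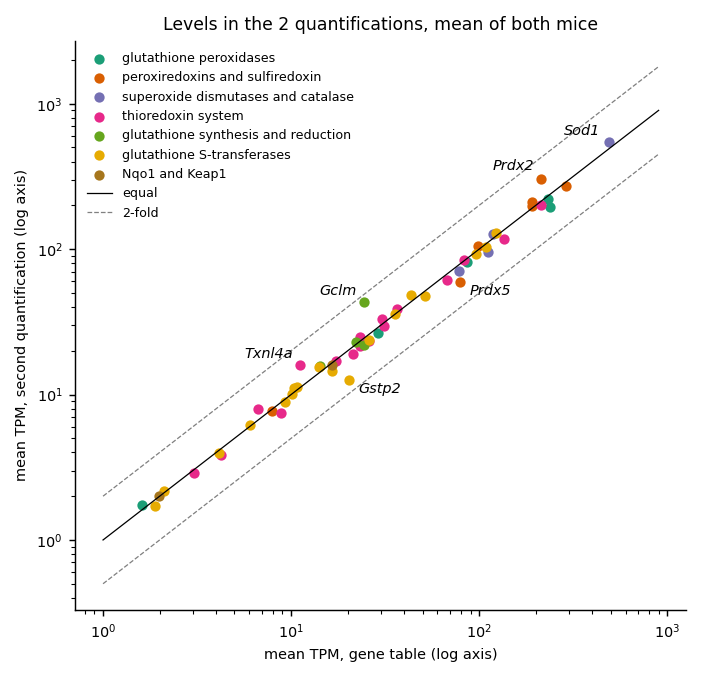
Mean TPM of both mice in the gene table (x axis) against the second quantification (y axis), both on log axes, for the members with a mean of at least 1 TPM; colours give the role, the line marks equal values and dashed lines 2-fold. All points lie within the dashed lines, and Gclm, Prdx2, Txnl4a, Prdx5 and Gstp2 stand farthest from the line.

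Near-identical copies make the split of reads between some genes uncertain. A stretch of at least 200 bases with at least 95% identity to another gene was found for 17 members. Of these Txndc16 matched 16 genes over 232 to 398 bases, among them Tsc2, Gga3 and Uvrag, which are not of its family, and without it 16 members remain. Gstp1 and Gstp2 agreed in 98.2% of 707 bases. The posterior SD of the Gstp1 count was 93.3 in mouse 1 (3119 counts) and 62.8 in mouse 2 (2579 counts). The binomial test and the counting intervals leave this error out. Gstp2 had 389 and 393 counts in the gene table and 275 and 375 in the second quantification, and its log2 ratio between the mice was 0.15 and 0.58 respectively. Gpx4 and the pseudogene Gpx4-ps2 agreed in 99.7% of 762 bases. Gpx4 had 5297 and 5152 counts in the gene table and 6587 and 6663 in the second, where Gpx4-ps2 had 4.07 and 0. Gsta1 and Gsta2 agreed in 97.2% of 870 bases.

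Exons of 16 members overlap those of another gene, 14 of them a gene on the opposite strand. The library kit is directional, but whether the counting used strand is not given in the sources used here. The largest overlaps by share of the member's exons were Txnip with the antisense gene Gm15441 (19.4%), which had 9 counts in each mouse, and Prdx5 with Trmt112 (19.1%).

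Some members had much of their TPM in transcripts not annotated as protein-coding. In the gene table, the leading transcript was annotated as protein-coding in 54 of the 57 members with expression in both mice, and in 3 it was not. The second quantification had other leading transcripts for some members. It placed first the retained intron Prdx2-205 (mean 61.0% of Prdx2), the processed transcript Gclm-202 (43.1% of Gclm) and the coding Txnl4a-201 (46.1% of Txnl4a). For Sod2 the coding transcripts held 12.3% and 12.7% of the gene's TPM, and 14.3% and 13.7% in the second quantification. Its leading transcript, Sod2-207, is a processed transcript of 1138 bases at 62.6 and 71.7 TPM, and the coding Sod2-201, with 5861 bases, stood at 13.2 and 16.3 TPM. By counts, which weigh longer transcripts more, the coding share of Sod2 was 47.3% and 48.8%.

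Prdx6 showed the same split. Its leading transcript, Prdx6-208, annotated as a target of nonsense-mediated decay, held 63.9% and 57.9% of TPM, and the coding transcripts held 14.8% and 14.7%. Txnl4a was the last of the 3, at 45.0% and 28.2% coding in the gene table, although 67.8% and 62.5% in the second quantification. By counts, its coding share was 85.7% and 80.3%, while that of Prdx6 was 24.95% and 25.3%. The methods disagreed for other members too. Prdx2 was 66.1% and 63.9% coding in the gene table and 35.3% and 36.4% in the second, and Gpx4 was 64.0% and 73.1% coding in the first and 97.9% and 99.3% in the second. Gclm was 69.7% and 63.6% coding in the gene table and 37.8% and 33.8% in the second. In Gpx4 the retained-intron transcript Gpx4-203, of 280 bases, held 77.9 and 67.9 TPM in the gene table and 0 in the second quantification. The gene-level TPM of these members therefore holds transcripts whose coding status the methods do not settle.

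**Figure D4:**
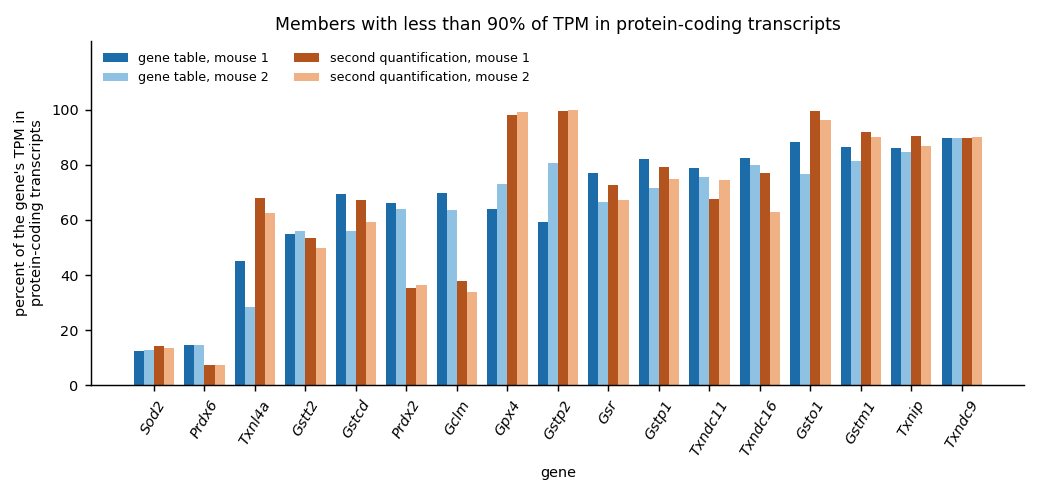
Percent of the gene's TPM in protein-coding transcripts, for the 17 members whose mean share was below 90% in the gene table; blue bars are the gene table and brown bars the second quantification, dark for mouse 1 and light for mouse 2. Sod2 and Prdx6 are under 20% in all 4 bars, and Gpx4, Prdx2 and Gclm differ between the quantifications.

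By contrast, 25 of the 57 had a leading transcript with at least 90% of the gene's TPM in the gene table, in the mean of both mice. Sod1-201 held 99.4% and 99.1% of Sod1, Gstk1-201 98.5% and 99.1% of Gstk1 and Txn2-201 91.4% and 92.96% of Txn2. In Txnip, Txnip-202 held 51.1% and 50.1% and Txnip-201 34.9% and 34.4%, both coding, and both had higher TPM in mouse 2 (54.9 and 82.3 TPM, and 37.5 and 56.5 TPM).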

How the data were processed

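Total RNA of 1 group of 2 mice was measured, and no test between groups was made. Per the file headers, the first deposited tables give expected counts (model estimates, not always whole) for genes and transcripts. The deposited text files name mm10, GENCODE M21 and transcriptome alignments as their source. TPM in the deposited tables is scaled over all rows and to length. Each transcript's percent of its gene is the authors', per the file headers, as is the posterior SD of each count, a score in counts. A second deposited table per library, made from reads and a transcript index, gives estimated counts and TPM by transcript. Which aligner and quantifiers were used is not given in the sources used here. CAST reads were aligned to another strain's reference. Rows that name no gene, 0.503% and 0.527% of counts in mouse 1 and mouse 2, nearly all spike-in, stayed out of library sizes.

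Log2 ratios used TMM scaling (edgeR 4.0.16 under R 4.3.3), a prior count of 2 and genes that averaged 10 counts or more. The exact two-sided binomial test ran on rounded expected counts, with Benjamini-Hochberg adjustment over 17666 genes at 0.05. Counting intervals are 95% Clopper-Pearson intervals and cover counting error only. The log2 ratio and the binomial test, though not the intervals, were tested on simulated data. Transcripts of the second table were summed by gene for a comparison on TPM plus 0.1. Copies were found with BLAST 2.17.0, and coding windows were read from the annotation's transcripts. Alternatives were total count, median-of-ratios (DESeq2 1.42.0) and ERCC scaling, nuclear protein-coding genes alone, the second quantification, other filters, thresholds, prior counts and pseudocounts, and each mouse alone. Scripts ran in Python 3.11.15 with scipy 1.17.1, pandas 2.3.3 and numpy 2.4.6.

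Members, lists and alternatives were chosen with earlier results of these data known. By rule, the text names each role group's top 4 members by mean TPM and every member at 0 counts. It also names the 4 largest log2 ratios in each direction between mice (mean of at least 100 counts) and between quantifications (at least 1 TPM), and the 6 members nearest 1 TPM on each side. Of the other pathway genes it takes the 2 highest of each subgroup, and Nfe2l2, Hmox1, Slc7a11 and Nnt. A further item that this rule takes is not reported here. Other members were named after their values were seen, for role or call.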

Additional observations from a re-analysis of the deposited data

Results flagged for a closer look

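Rows of pseudogenes of the members enter none of the comparisons, yet some held counts above the limit that a count of 0 allows. Gpx4-ps2, a pseudogene of Gpx4 on chromosome 10, had 676 expected counts in mouse 1 and 780.3 in mouse 2, with 4.07 and 0 in the second quantification. Gstp-ps, close to Gstp2, had 15.3 and 27.0 expected counts, with 2.29 and 4.56 in the second quantification. Gstm2-ps1, close to Gstm1, had 3.31 and 3.45, with 0 and 0 in the second quantification. With 2 mice a search for outlying samples was not possible.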

How the results depend on the processing

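Of the 22 members called beyond counting noise, 17 were called under all 7 alternatives of scaling, filter and quantification, and none changed the sign of its ratio. The calls of Gsr, Gstp1 and Prdx2 were lost with total count scaling, that of Gstt1 in the second quantification and that of Sod2 with ERCC scaling. In turn 8 members not called became called under at least 1 alternative: Cat, Gsta4 and Txnrd1 (total count scaling and second quantification), Gpx8 and Prdx1 (total count scaling), Gclm and Gstp2 (second quantification) and Txndc5 (ERCC scaling and the filter of 100 counts). Total count scaling moved the median log2 ratio of all genes from 0.00 to 0.05. Without a filter on low counts 2 members were 2-fold apart, Gsta1 with 13.2 and 3.96 counts and Gstt4 with 0 and 2 counts, since more genes were then tested. The other counts of members stayed within 1.5 times of their values, apart from the calls higher in mouse 2, which were 13 under total count scaling. In the second quantification mean TPM moved past the spread between the mice for 9 members upward and 15 downward of 57, and the leading transcript's percent for 42 of 57. No paired analysis was possible because there is 1 group. With 2 libraries, members under about 10 counts could not be compared.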

Other observations

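Txndc2, known as the thioredoxin of sperm, was measured in these female glands, at 8.01 and 9.77 TPM on 565 and 556 expected counts in mouse 1 and mouse 2. Both of its annotated transcripts are protein-coding, and both held counts, the longer 343 and 338 and the shorter 222 and 218. Txndc8, also known from the testis, had no count in either library. Where along Txndc2 the reads lay was not examined.

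Junb, an early-response transcription factor, shares 173 exonic bases with Prdx2 on the opposite strand. It had 4211 expected counts in mouse 1 and 579 in mouse 2, or 60.6 and 10.3 TPM, while Prdx2 had 7986 and 6849 counts.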
